A study of Mus musculus with 15 samples.

Results

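Guanylate-binding proteins (GBPs) are large GTPases that cells make in response to interferon, above all interferon-gamma. The 10 genes described here, Gbp2 to Gbp11, are 10 of 27019 rows of the count table. They were selected on their day 0 counts, because most had lower counts in naive Susd2-/- CD8 T cells than in naive WT cells. Their day 0 values by genotype are therefore given as a description, with no test.

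GBPs bind and hydrolyse GTP, assemble on membranes and coat the vacuoles and surfaces of intracellular microbes, where they can break the membrane and feed caspase-driven inflammasomes. Interferon-gamma reaches the genes through its receptor, the kinases JAK1 and JAK2 and, further downstream, the transcription factor IRF1. Promoters of its target genes often carry GAS and ISRE elements, and interferon regulatory factors bind the ISRE. T cells make interferon-gamma themselves and also carry its receptor.

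Poly(A) RNA was sequenced from CD8 T cells enriched with beads from the spleen of OT-I mice, whose transgenic T cell receptor recognises an ovalbumin peptide. All groups came from C57BL/6 mice of 8 to 10 weeks carrying OT-I. The groups were Susd2-/- day 3 and WT day 3, from splenocytes cultured with the OVA257-264 peptide, and Susd2-/- day 0 and WT day 0, left untreated, with 2 libraries each. The product of Susd2 is a cell surface protein. Whether libraries of one group come from different mice is not stated, so every p-value speaks of library-to-library spread, possibly technical.

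Library totals were 26829807 to 53846911 counts, and WT day 3 library 2 had counts from 1 lane where the others had 2. Susd2 had 0 and 2 counts in Susd2-/- day 3, against 16 and 10 in WT day 3. It had 1 and 3 counts in Susd2-/- day 0, against 90 and 80 in WT day 0. The 12 CD8 T cell markers summed to 4080 to 4307 CPM at day 3 and 6307 to 7247 CPM at day 0, and Cd4 averaged at most 0.395 CPM in any group. CPM are counts scaled to a common library total, with TMM, edgeR's correction for composition. The chi-square over its degrees of freedom between the 2 libraries of a group was 16.0 in Susd2-/- day 3, 12.5 in WT day 3, 6.30 in Susd2-/- day 0 and 3.37 in WT day 0. Between 2 lanes of a library it was 3.01 to 3.17, so the WT day 0 libraries differed little more than lanes did and the other pairs more.

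The 10 genes form 2 clusters in GRCm38. Gbp5, Gbp7, Gbp3 and Gbp2 lie in that order on the + strand of chromosome 3, at chr3:142493978-142638008. Gbp8, Gbp9, Gbp4, Gbp10, Gbp6 and Gbp11 lie on the - strand of chromosome 5, at chr5:105014150-105346472. In GENCODE M21 the gene bodies of Gbp4, Gbp9 and Gbp8 begin close together and their exons share 60 or 61 bases there. Gbp11 is annotated as a polymorphic pseudogene and the other 9 as protein-coding. Gbp2b, a further family member inside the chromosome 3 cluster, reached at most 0.0788 CPM in any library and did not pass the count filter.

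The coding sequences show how far reads can tell the members apart. The chromosome 5 members were at least 90.5% identical to each other, whereas pairs within chromosome 3 were 67.0% to 79.6% identical. The closest pair, Gbp6 and Gbp10, was 98.4% identical, and 28.9% of the 150-base windows of either coding sequence occurred unchanged in the other. For every other member at most 0.17% of such windows occurred in another member. With windows of 100 bases the shares were 10.8% for Gbp11, 7.14% for Gbp4, 6.10% for Gbp8 and 4.89% for Gbp9. At that length they were 43.5% for Gbp6 and 41.7% for Gbp10, and at most 1.36% for the chromosome 3 members. Gbp10 and Gbp6 also share 46.3% and 29.0% of their exon bases with Gm43302 on the same strand. On chromosome 3, Gbp7 shares 11.35% of its exon bases with Gm43802, a processed pseudogene on the same strand. How reads with several alignments or overlapping genes were counted is not given in the sources used here, so the Gbp6 and Gbp10 values are uncertain. Those of the other chromosome 5 members and of Gbp7 may be affected too. The stretch that encodes the GTP-binding P-loop is shown as an example, with its 8 codons in capitals and 9 bases on either side (from GENCODE M21 coding sequences).
Gbp2: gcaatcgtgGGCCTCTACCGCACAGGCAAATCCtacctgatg
Gbp5: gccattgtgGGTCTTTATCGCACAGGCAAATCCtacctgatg
Gbp6: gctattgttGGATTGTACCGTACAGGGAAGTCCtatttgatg
Gbp10: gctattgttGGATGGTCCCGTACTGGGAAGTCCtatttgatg
Gbp8, Gbp9 and Gbp11 have the same bases as Gbp6 over the whole stretch. Gbp10, the closest to Gbp6 over the full coding sequence, does not, so this short stretch does not follow the overall identities. Within the 8 codons, Gbp5 differed from Gbp2 at 3 bases, Gbp6 at 6 and Gbp10 at 9.

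RefSeq promoter windows (GRCm38.p6, 250 bases before to 50 after a start) matched 4 of the 10 genes, all on chromosome 3. They were searched on both strands for the GAS letters TTCNNNGAA and the ISRE letters GAAANNGAAA. The 250 bases before the start are shown because they carry all the matches, which are in capitals.
Gbp5 (chr3:142496684-142496933, + strand): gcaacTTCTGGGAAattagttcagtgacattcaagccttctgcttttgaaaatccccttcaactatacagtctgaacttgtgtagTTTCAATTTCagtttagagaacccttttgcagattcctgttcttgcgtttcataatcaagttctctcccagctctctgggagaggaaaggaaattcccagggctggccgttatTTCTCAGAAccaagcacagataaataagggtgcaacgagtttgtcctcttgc
Gbp7 (chr3:142530086-142530335, + strand): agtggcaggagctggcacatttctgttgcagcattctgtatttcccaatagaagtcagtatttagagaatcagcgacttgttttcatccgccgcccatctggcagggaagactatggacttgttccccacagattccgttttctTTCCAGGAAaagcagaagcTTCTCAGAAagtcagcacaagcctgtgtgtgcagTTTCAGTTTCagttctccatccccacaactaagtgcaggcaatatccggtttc
Gbp3 (chr3:142559794-142560043, + strand): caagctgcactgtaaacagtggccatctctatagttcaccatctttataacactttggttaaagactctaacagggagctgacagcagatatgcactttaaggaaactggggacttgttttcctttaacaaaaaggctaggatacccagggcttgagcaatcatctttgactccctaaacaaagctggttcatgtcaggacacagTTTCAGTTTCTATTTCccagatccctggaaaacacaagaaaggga
Gbp2 (chr3:142620413-142620662, + strand): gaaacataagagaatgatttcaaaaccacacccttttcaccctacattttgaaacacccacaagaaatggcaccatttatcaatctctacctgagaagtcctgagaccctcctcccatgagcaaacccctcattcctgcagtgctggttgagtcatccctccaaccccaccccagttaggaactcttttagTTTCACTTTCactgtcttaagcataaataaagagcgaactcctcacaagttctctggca
Gbp5 and Gbp7 each had 2 GAS matches and 1 ISRE match, with no overlap between them. Gbp3 had 2 ISRE matches that overlap each other, in the first of its 2 windows. Gbp2 had 1 ISRE match and no GAS match. Each ISRE match lay on the - strand and is printed as its reverse complement, TTTCACTTTC in Gbp2. Of 32851 windows of the same length, 8.3% held a GAS match, 3.44% an ISRE match and 0.454% both. A match describes letters in a window and is not evidence that a factor bound there.

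In naive cells every member was lower in Susd2-/- than in WT. The members summed to 839 and 838 CPM in Susd2-/- day 0, against 1201 and 1213 CPM in WT day 0. Both Susd2-/- libraries lay below both WT libraries for 10 of 10 members, an order that 31.4% of the 16057 tested genes showed. The rule used this contrast, so nothing is read from that count. The log2 fold changes ran from -1.62 for Gbp10 to -0.21 for Gbp9, with a median of -0.87 against 0.01 over all genes tested. In these bulk libraries, fewer cells that carry a transcript and less transcript per cell cannot be told apart.

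Among the chromosome 3 members, Gbp2, which coats vacuoles of the parasite Toxoplasma and carries a lipid anchor, had 70.9 and 67.2 CPM in Susd2-/- day 0, against 169.7 and 169.8 CPM in WT day 0 (log2 fold change -1.30 ± 0.0907, SE). Gbp5, which promotes NLRP3 inflammasome assembly, had 20.2 and 19.8 CPM in Susd2-/- day 0, against 44.5 and 41.2 CPM in WT day 0 (-1.10 ± 0.186). In both genes the libraries of a group lay closer together than the groups did. These day 0 values chose the genes, so nothing is read from that. Gbp3, which is also recruited to Toxoplasma vacuoles, had 20.6 and 22.0 CPM in Susd2-/- day 0, against 41.7 and 42.1 CPM in WT day 0 (-0.98 ± 0.129). Gbp7, a contributor to oxidative defence against intracellular bacteria, had 100.1 and 94.8 CPM in Susd2-/- day 0, against 144 and 157 CPM in WT day 0 (-0.63 ± 0.136). Within this cluster the difference was smallest for Gbp7.

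On chromosome 5 the 3 members of highest level per kilobase had the smallest differences. Gbp9 had 261 and 262 CPM in Susd2-/- day 0, against 300.5 and 306 CPM in WT day 0 (-0.21 ± 0.215). The standard error comes from a fit of all 8 libraries. For Gbp9 the ratio between libraries of a group was larger at day 3 than at day 0. The standard error of Gbp9 therefore does not describe the day 0 spread alone, and nothing is read from its size. Gbp4 had 244 and 242 CPM in Susd2-/- day 0, against 312 and 319 CPM in WT day 0 (-0.38 ± 0.0863). Gbp8 had 94.7 and 100.1 CPM in Susd2-/- day 0, against 125 and 120.2 CPM in WT day 0 (-0.33 ± 0.0872). These 3 genes are the ones whose bodies begin together. The other 3 had lower levels per kilobase and differed more. Gbp6, found at Toxoplasma vacuoles like Gbp9, had 17.7 and 19.9 CPM in Susd2-/- day 0, against 31.4 and 32.7 CPM in WT day 0 (-0.77 ± 0.155). Gbp10 had 6.65 and 5.74 CPM in Susd2-/- day 0, against 21.2 and 17.0 CPM in WT day 0 (-1.62 ± 0.429). Gbp11 had 3.89 and 3.79 CPM in Susd2-/- day 0, against 11.3 and 8.33 CPM in WT day 0 (-1.35 ± 0.245). With the counts of the near-identical Gbp6 and Gbp10 summed as 1 gene, the log2 fold change was -1.03 ± 0.257.

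**Figure D1:**
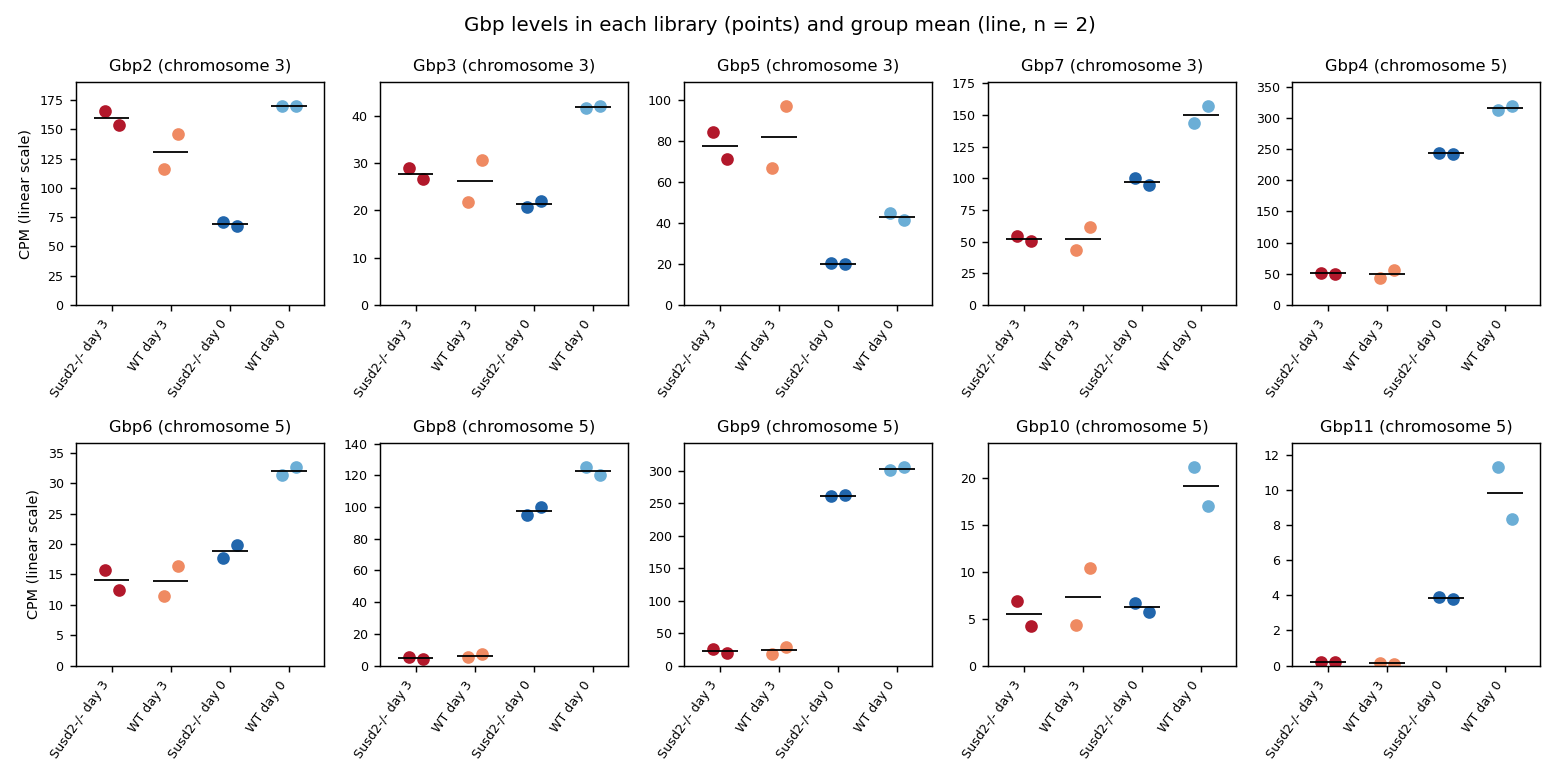
CPM of each Gbp gene (vertical axis, linear, from 0) in the 8 libraries (points), by group (horizontal axis), with the group mean as a line (n = 2). At day 0 both Susd2-/- points lie below both WT points in all 10 panels, and at day 3 the groups overlap in 7 panels.

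At day 3, after culture with the peptide, no member passed the test between genotypes. The day 3 libraries were not used to choose the genes, so this contrast was tested. In edgeR's quasi-likelihood test with Benjamini-Hochberg adjustment over 16057 genes, 0 of 10 members had an adjusted p below 0.05, and 2 had an unadjusted p below 0.05. The background was 22 genes, or 0.137% of those tested, so calls of any gene were rare in this contrast. DESeq2 also called 0 members. The members' median log2 fold change was 0.00, with 5 positive and 5 negative, and the median over all genes was 0.

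Gbp2 had 166 and 154 CPM in Susd2-/- day 3, against 116 and 146 CPM in WT day 3. Both Susd2-/- libraries lay above both WT libraries, the reverse of day 0, with a log2 fold change of 0.29 ± 0.0882 (SE) and an edgeR adjusted p of 0.353. Gbp8 had 5.32 and 4.43 CPM in Susd2-/- day 3, against 5.52 and 7.18 CPM in WT day 3. Its Susd2-/- libraries lay below the WT ones (-0.40 ± 0.131, edgeR adjusted p 0.389). Gbp11 was nearly absent, with 6 and 11 counts in Susd2-/- day 3, against 5 and 3 counts in WT day 3 (0.202 and 0.217 CPM in Susd2-/-, 0.162 and 0.106 CPM in WT). The other 7 members overlapped between genotypes. Over all genes, 17.4% had both Susd2-/- libraries above both WT ones and 16.3% below.

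The 2 WT day 3 libraries lay further apart than the 2 Susd2-/- day 3 libraries for all 10 members. Gbp5 had 84.3 and 71.0 CPM in Susd2-/- day 3, against 66.7 and 96.8 CPM in WT day 3. Gbp7 had 54.4 and 50.3 CPM in Susd2-/- day 3, against 43.5 and 61.3 CPM in WT day 3. Both Susd2-/- day 3 libraries lay between the WT ones for Gbp3, Gbp4, Gbp5, Gbp6, Gbp7 and Gbp9. WT day 3 library 2 was the higher of the WT pair for every member except Gbp11, by a factor of 1.26 for Gbp2 to 2.40 for Gbp10. The same library was higher in the 26 type I interferon-stimulated genes, which summed to 673 and 610 CPM in Susd2-/- day 3, against 617 and 970 CPM in WT day 3. Isg15, named after its values were seen, had 29.9 and 23.4 CPM in Susd2-/- day 3, against 24.2 and 67.9 CPM in WT day 3. Leaving out either WT day 3 library leaves 1 library in that group, which the fit assumes to vary like the other groups. Without WT day 3 library 2, Gbp2 passed the test (0.49, edgeR adjusted p 0.000565), and without WT day 3 library 1, Gbp8 (-0.53, edgeR adjusted p 0.0398) and Gbp10 (-0.90, edgeR adjusted p 0.00855) did. With no count filter Gbp2 passed too (0.33, edgeR adjusted p 0.0134).

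**Figure D2:**
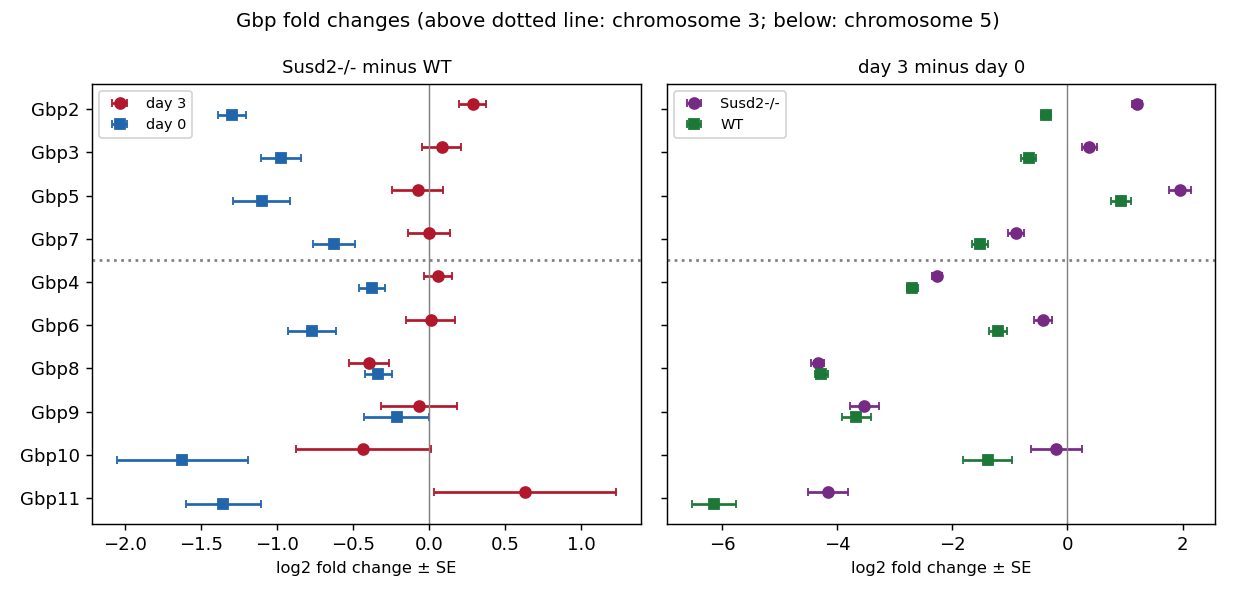
Log2 fold changes ± SE (horizontal axis) of the 10 Gbp genes (rows), Susd2-/- minus WT at each day on the left and day 3 minus day 0 in each genotype on the right. On the left the day 0 values lie between -1.62 and -0.21 and the day 3 values between -0.43 and 0.63.

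Between days the members moved in different directions and by very different amounts. The day 3 minus day 0 difference averaged over genotypes shares the day 0 libraries with the contrast that chose the genes. The estimates are uncorrelated if both day 0 groups spread alike, so the averaged difference was tested. In edgeR's quasi-likelihood test 8 of 10 members changed, 2 higher and 6 lower. Change was the rule in this contrast, with 83.2% of all genes called, 39.2% higher and 44% lower, so the share of members called is near the background. On chromosome 3, 2 members had positive and 2 negative values, and on chromosome 5 all 6 were negative, a difference between the clusters that was not tested. The chromosome 3 members had a median log2 fold change of 0.14 and the chromosome 5 members one of -3.04, beside -0.14 over all genes tested.

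Gbp5 rose at day 3, by a log2 fold change of 1.44 ± 0.127 (edgeR adjusted p 1.97e-05), and all 4 day 3 libraries lay above all 4 day 0 libraries, as for 35.7% of all genes. Gbp2 rose on average by 0.42 ± 0.0629 (edgeR adjusted p 1.41e-05), but that average joined opposite directions. Within genotypes, given without a test because the day 0 libraries chose the genes, the Gbp2 difference was 1.21 in Susd2-/- and -0.37 in WT. Gbp3 split the same way, 0.38 in Susd2-/- and -0.68 in WT, and its average of -0.15 did not pass (edgeR adjusted p 0.139). It passed without WT day 3 library 2 (-0.23, edgeR adjusted p 0.0145) and with library totals in place of TMM (-0.34, edgeR adjusted p 0.00249), and was 0.00014 without WT day 3 library 1. Gbp5 was higher at day 3 in both, by 1.95 in Susd2-/- and 0.93 in WT. Gbp7 fell, by 1.21 on the log2 scale (SE 0.0984, edgeR adjusted p 3.04e-06).

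All 6 chromosome 5 members had lower levels at day 3, and 5 of them passed the test. For these 5 and Gbp7 all 4 day 3 libraries lay below all 4 day 0 libraries, as for 38.8% of all genes. Gbp8 averaged 4.88 CPM in Susd2-/- day 3 and 6.35 CPM in WT day 3, against 97.4 CPM in Susd2-/- day 0 and 123 CPM in WT day 0. That is a log2 fold change of -4.31 ± 0.0783, or 19.8-fold lower at day 3 (edgeR adjusted p 1.03e-19). Gbp9 averaged 22.9 CPM in Susd2-/- day 3 and 23.9 CPM in WT day 3, against 261 CPM in Susd2-/- day 0 and 303 CPM in WT day 0 (-3.60 ± 0.175, edgeR adjusted p 1.49e-05). Gbp4 had 51.3 and 49.97 CPM in Susd2-/- day 3 and 42.4 and 55.1 CPM in WT day 3, well under every day 0 library (-2.48 ± 0.0657, edgeR adjusted p 4.40e-15). The 3 genes whose bodies begin together were thus 5.58-fold to 19.8-fold lower at day 3. Gbp11 showed the deepest fitted difference (-5.15 ± 0.261, edgeR adjusted p 4.78e-13), on only 3 to 11 counts per day 3 library. Gbp6 was lower by far less (-0.82 ± 0.112, edgeR adjusted p 3.73e-06), and its near-copy Gbp10 did not pass (-0.79 ± 0.308, edgeR adjusted p 0.0516). Gbp10 passed with DESeq2's Wald test (adjusted p 0.0333) and with DESeq2's size factors in edgeR (0.0495).

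**Figure D3:**
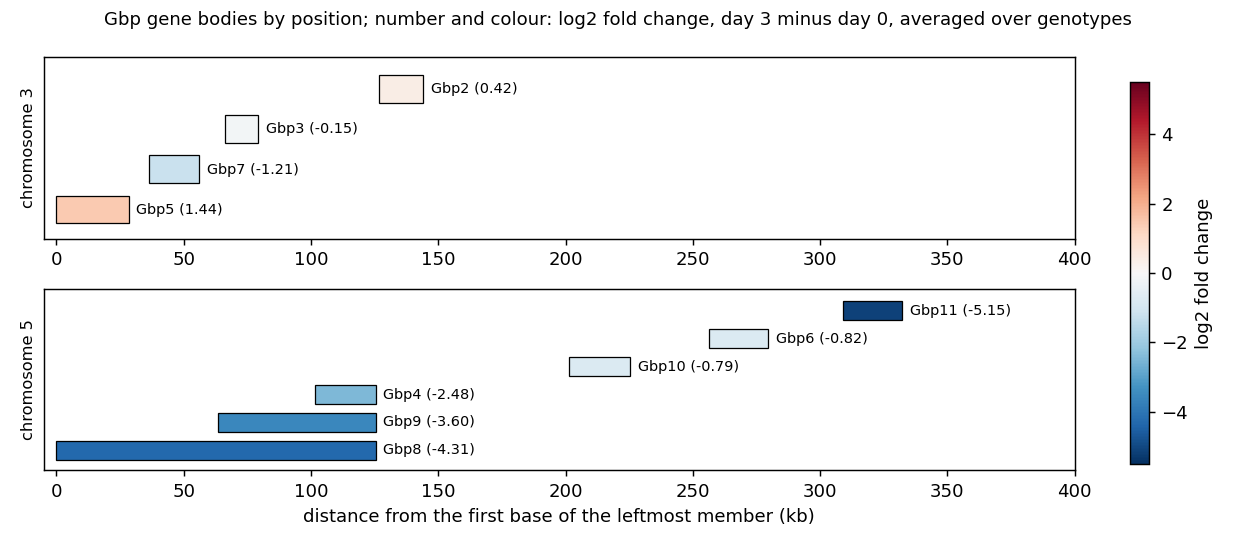
Gene bodies of the Gbp members (boxes) by distance in kb from the leftmost member of each cluster, with the log2 fold change of day 3 minus day 0, averaged over genotypes, as number and colour. Values run from -5.15 (Gbp11) to 1.44 (Gbp5), and Gbp8, Gbp9 and Gbp4 end at the same right-hand position, where genes on the - strand begin.

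Levels of different genes were compared as CPM per kilobase of exon. By that measure the GBP of highest level in Susd2-/- was Gbp2 at day 3 and Gbp9 at day 0. In WT it was Gbp2 on both days, although with another gene length Gbp4, Gbp9 and Gbp2 stood level in WT day 0. The day 0 counts by genotype chose the genes, so nothing is read from the difference between genotypes at day 0. At day 3 Gbp2 led, with 66.0 and 61.1 CPM per kb in Susd2-/- and 46.0 and 58.1 CPM per kb in WT, ahead of Gbp5 with 12.7 and 10.7 CPM per kb in Susd2-/- and 10.1 and 14.6 CPM per kb in WT. Gbp7, Gbp3 and Gbp4 came next by their means, and in WT day 3 the ranges of Gbp5 and Gbp7, of Gbp7 and Gbp3 and of Gbp3 and Gbp4 overlapped. In Susd2-/- day 0 Gbp9 led, with 50.4 and 50.7 CPM per kb, ahead of Gbp4 with 32.6 and 32.3 CPM per kb, Gbp8 with 27.5 and 29.1 CPM per kb and Gbp2 with 28.2 and 26.7 CPM per kb. The Gbp8 and Gbp2 ranges overlapped. In WT day 0 Gbp2 led, with 67.5 CPM per kb in both libraries, ahead of Gbp9 with 58.1 and 59.1 CPM per kb, Gbp4 with 41.6 and 42.5 CPM per kb and Gbp8 with 36.4 and 34.9 CPM per kb.

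The chromosome 3 members together made up 84.5% and 85.5% of the summed CPM per kb in Susd2-/- day 3 and 83.5% and 81.9% in WT day 3. They made up 32.2% and 31.1% in Susd2-/- day 0 and 42.7% and 43.4% in WT day 0. The order of the genes and these shares depend on the gene length used, on both days. With the length of the transcript that has the longest coding sequence in place of all exons, Gbp4 (69.5), Gbp9 (69.2) and Gbp2 (67.5 CPM per kb) stood level in WT day 0. Gbp9 still led in Susd2-/- day 0 (59.7) and Gbp2 at day 3 (63.5 in Susd2-/- and 52.1 in WT). Behind Gbp2 and Gbp5 at day 3, the order by means was then Gbp4, Gbp3 and Gbp7 in both genotypes. The chromosome 3 share was lower by this length in all 4 groups.

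**Figure D4:**
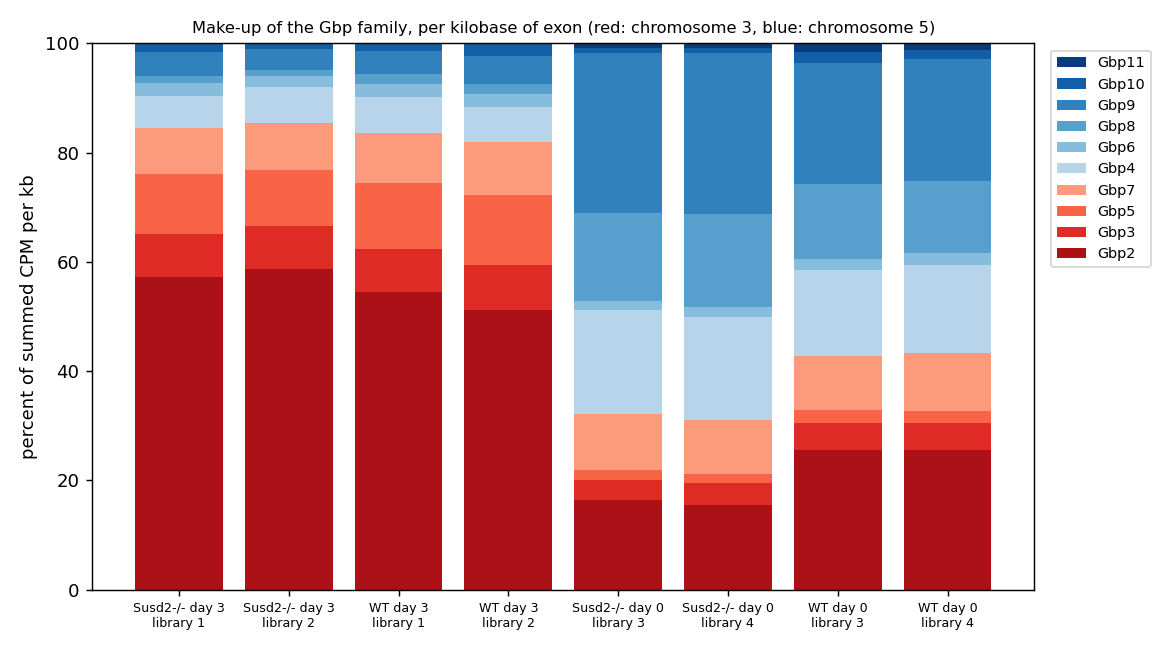
Percent of the summed CPM per kb of exon that each Gbp gene makes up (stacked bars to 100%) in each of the 8 libraries. Red shades, the chromosome 3 genes, fill 81.9% to 85.5% of the day 3 bars, 31.1% and 32.2% of the Susd2-/- day 0 bars and 42.7% and 43.4% of the WT day 0 bars.

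Other genes of the interferon response were tested at day 0, where 12.1% of all genes were called lower and 11.5% higher in Susd2-/-. Of 9 tested interferon-inducible GTPases outside the GBP family, 7 were lower and 0 higher. These are mostly immunity-related GTPases (IRGs), which act with GBPs at pathogen vacuoles. Igtp (Irgm3) had 70.5 and 70.3 CPM in Susd2-/- day 0, against 189 and 199 CPM in WT day 0 (-1.46 ± 0.0816, edgeR adjusted p 1.99e-09). Tgtp2 (-1.37), Irgm2 (-1.25) and Tgtp1 (-1.82) were also lower. Iigp1, named after its values were seen, had 2.91 and 1.44 CPM in Susd2-/- day 0, against 43.7 and 39.5 CPM in WT day 0 (-4.24 ± 0.440, edgeR adjusted p 0.00342). The 2 that did not pass were Mx1 (0.06), named after its values were seen, and Mx2 (0.52), both classical type I interferon targets.

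Of 22 tested genes from a list of further interferon-gamma-induced genes, 12 were lower and 0 higher at day 0. They included Psmb9 (-0.74) and Psmb8 (-0.53), subunits of the immunoproteasome, Ly6a (-2.36), the Sca-1 antigen, and Casp1 (-2.25), the inflammasome protease. When each day 0 group was treated as 1 library, 7 of the 22 were lower. Of 20 tested genes of interferon-gamma signalling, 6 were lower and 3 higher. Irf1 had 213 and 199 CPM in Susd2-/- day 0, against 314 and 304 CPM in WT day 0 (-0.59 ± 0.0635, edgeR adjusted p 2.79e-06). Il12rb1 (-0.79), a receptor chain for interleukin-12, was lower as well. The receptor chain Ifngr1 went the other way, with 345 and 350.2 CPM in Susd2-/- day 0, against 219 and 225 CPM in WT day 0 (0.65 ± 0.0591, edgeR adjusted p 4.28e-07). Ifng, named as the ligand after its values were seen, had 4.21 and 4.61 CPM in Susd2-/- day 0, against 5.28 and 3.62 CPM in WT day 0 (-0.02 ± 0.333, edgeR adjusted p 0.984).

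Of 26 genes chosen as type I interferon-stimulated, 3 were lower and 1 higher at day 0. The lower ones were Ifit1bl1 (-1.90), Ifit2 (-0.56) and Ifit3 (-0.66), and Oas2, an antiviral enzyme, was higher (0.68). Without either WT day 3 library, 9 of the 26 were lower, and when each day 0 group was treated as 1 library, 0 were lower or higher. Of 18 GBP partners, 7 were lower and 5 higher. Without Susd2-/- day 0 library 4, 3 partners were higher, and when each day 0 group was treated as 1 library, 4 were lower and 1 higher. Casp1 and Casp4 (-1.92), which the list of further interferon-gamma-induced genes also holds, were lower. Aim2 (-0.75), a DNA sensor, and Pycard (-0.79), an inflammasome adaptor, were lower too. Gabarapl1 (0.85), a member of the ATG8 family, whose conjugation machinery helps to bring GBPs to vacuoles, was higher. Of the 6 prenylation enzymes, which attach or process the lipid anchors of proteins such as Gbp2 and Gbp5, 2 were lower (Fnta -0.38, Zmpste24 -0.32) and 1 was higher (Rce1 0.28). Of 3 atlastins, which are related membrane GTPases, 1 was lower (Atl3 -0.29). Of 9 tested genes that lie near the clusters, 2 were lower (Abcg3 -0.66, Gtf2b -0.25) and 2 higher (Lrrc8d 0.37, Zfp326 0.42). When each day 0 group was treated as 1 library, 0 prenylation enzymes, atlastins or nearby genes were lower or higher. Without Susd2-/- day 0 library 4, 1 prenylation enzyme was lower and 0 higher, and 0 nearby genes were higher. Without WT day 0 library 4, 1 prenylation enzyme was lower and 0 higher, 0 atlastins were lower, and 1 nearby gene was lower and 1 higher. Without WT day 0 library 3, 0 prenylation enzymes were higher, and 1 nearby gene was lower and 1 higher. The higher prenylation enzyme was also lost without Susd2-/- day 0 library 3, Susd2-/- day 3 library 2 or either WT day 3 library.

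At day 3, 0 genes of any of these 8 lists passed edgeR's test between genotypes, with 0 to 6 per list at an unadjusted p below 0.05. DESeq2 called 2 of the type I interferon-stimulated genes lower, Oasl1 and Oasl2, and 0 in the other 7 lists. The smallest edgeR adjusted p was that of Oasl1 (0.0747), with 3.50 and 3.03 CPM in Susd2-/- day 3, against 5.04 and 8.60 CPM in WT day 3. Igtp had 255 CPM in both Susd2-/- day 3 libraries, against 229.7 and 283 CPM in WT day 3 (-0.01 ± 0.0781). Ifng had 295 and 410.4 CPM in Susd2-/- day 3, against 583 and 529 CPM in WT day 3 (-0.65 ± 0.187, edgeR adjusted p 0.498). Its levels were higher at day 3 than at day 0 in both genotypes (6.64 averaged over genotypes, edgeR adjusted p 6.57e-07).

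**Figure D5:**
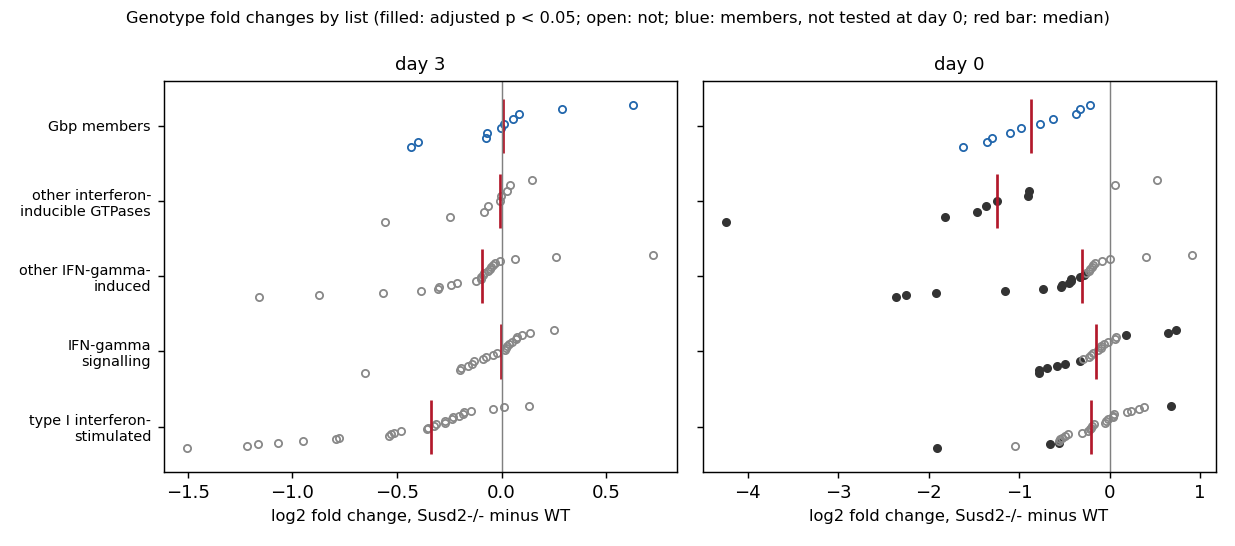
Log2 fold change of Susd2-/- minus WT (horizontal axis) for each gene (point) of the Gbp family and 4 interferon lists (rows), at day 3 (left) and day 0 (right). Filled points had an edgeR adjusted p below 0.05, red bars are medians, and the members (blue) were not tested at day 0. Filled points appear at day 0, 7 of 9 for the other GTPases, and 0 at day 3.

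Markers of other spleen cells also differed between the day 0 groups. The 18 monocyte and macrophage markers summed to 308 to 329 CPM in Susd2-/- day 0, against 232 to 242 CPM in WT day 0, and 9 of 18 were higher and 0 lower. Apoe had 48.1 and 43.1 CPM in Susd2-/- day 0, against 19.9 and 17.9 CPM in WT day 0, and Vcam1 had 32.8 and 32.1 CPM in Susd2-/- day 0, against 10.7 and 12.2 CPM in WT day 0. Ly6c2, the marker of highest CPM, which CD8 T cells also express, had 117 and 109 CPM in Susd2-/- day 0, against 121 and 129 CPM in WT day 0. The macrophage sum was thus higher where the Gbp genes were lower. The 10 NK cell markers summed to 267 to 276 CPM in Susd2-/- day 0, against 328 to 332 CPM in WT day 0, and 4 were lower and 0 higher, the direction of the Gbp genes. Nkg7, which activated T cells share, made up most of that sum, with 219 and 204 CPM in Susd2-/- day 0, against 254 and 259 CPM in WT day 0. Of 12 B and plasma cell markers 4 were higher and 1 lower, of 12 CD8 T cell markers 1 was higher and 5 lower, of 9 CD4 and regulatory T cell markers 3 were higher and 0 lower, of 9 tested dendritic cell markers 1 was higher and 1 lower, and of 3 tested neutrophil markers 1 was higher. At day 3 the macrophage sums were 20.2 to 23.7 CPM in Susd2-/-, against 21.8 to 27.5 CPM in WT, with Vcam1, C1qa and Adgre1 at 0 in all 4 libraries. The NK sums were 179 to 201 CPM in Susd2-/- day 3, against 220.1 to 237 CPM in WT day 3. Nkg7 again made up most of them, with 171 and 192 CPM in Susd2-/- day 3, against 207 and 224 CPM in WT day 3. Eomes was lower (-0.69 ± 0.131, edgeR adjusted p 0.0395). Apart from Nkg7 and Eomes, no NK marker exceeded 1.62 CPM (Klre1) in any day 3 library, so these sums say little about NK cells. The part of these markers in the Gbp values was not tested.

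By likeness of pattern, the genes nearest to the median of the members were Kbtbd3, Rsl1, Zbtb26, Smim4, Zfp729b, Zfp748, Zfp873 and Zfp97. Likeness was the distance between 3 log2 fold changes, genotype at day 0, genotype at day 3 and day averaged over genotypes, over 10017 genes and 8 libraries. Genes below an average log2 CPM of 1 and symbols of predicted genes, Riken clones or pseudogenes were left out. The genotype contrast at day 0 is also the one that chose the members. Their distances were 0.118 to 0.175 for these 8 genes. Kbtbd3, for example, had -0.86, -0.07 and -0.92, against medians over the members of -0.87, 0.00 and -1.01, each taken separately. The day values of the members ran from -5.15 to 1.44, so that point does not describe each member.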

How the data were processed

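The authors deposited 1 table of raw read counts per gene, whole numbers with no normalization, in 15 columns, each a sequencing lane, per the file header and values. Libraries were stranded, per the labels' protocols. Tools listed in the submitters' processing notes, with no roles, are Subread 2.0.1, HISAT2 2.1.0, fastp 0.23.2 and SAMtools 1.10, and the build is GRCm38. The annotation release, the strand setting and the handling of multi-mapped reads are not given there.

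Lanes were summed to 8 libraries in 4 groups of 2. Genes were kept by edgeR's filterByExpr (16057 of 27019 rows, at least 99.9% of each library's counts), which all 10 members passed. One edgeR 4.0.16 model (R 4.3.3) held all 4 groups, with TMM and the robust quasi-likelihood F test, and p-values were adjusted by Benjamini-Hochberg over 16057 genes, with 0.05 as the threshold. SE is the log2 fold change over the square root of F. Because the model held all 4 groups, an SE at one day also carries spread from the other day. Alternatives used DESeq2 1.42.0, DESeq2 size factors, no filter, a replicate block, single lanes, left-out libraries and, added after seeing the data, library totals without TMM, another gene length and Gbp6 and Gbp10 summed. The procedure was tested on simulated counts. Lengths and coordinates are from GENCODE M21 (GRCm38), and the fitted fold changes of genes with a few counts depend on the prior count. Values of nearby or near-identical genes are uncertain.

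The members, lists and naming rule were chosen with earlier results of these data known. Named genes were all members, up to 4 genes per list of smallest adjusted p at day 0 and up to 2 at day 3, up to 3 of highest level per marker list, and the 8 genes most like the members. The text names part of these, and 1 gene of the signalling list is not reported here.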

Additional observations from a re-analysis of the deposited data

Results flagged for a closer look

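The groups held 2 libraries each, so single libraries were not tested as outliers. For 2 members the genotype order on the days was opposite, Susd2-/- above WT in both libraries at day 3 and below WT in both at day 0. All 10 members lay below WT at day 0 by choice, and over all genes 17.4% had both Susd2-/- libraries above both WT libraries at day 3, so 2 of 10 is near the background. The genotype effect at day 3 minus that at day 0 was 1.58 for Gbp2 and 1.98 for Gbp11 on the log2 scale, and this difference was not tested because the day 0 contrast chose the genes. The Gbp11 value at day 3 rests on 3 to 11 counts per library.

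Beyond the members, only the interferon, partner, enzyme, atlastin and neighbour lists were searched in this way. Of the genes named from them, Irf1 (0.65), Tgtp2 (1.51), Pycard (1.00) and Fnta (0.52) showed the same opposite order. The log2 difference between the effects is in parentheses. For Tgtp2 the day 3 groups barely separated (26.1 and 25.8 CPM in Susd2-/-, against 21.3 and 25.8 CPM in WT). The same held for Irf1 (115.1 and 107.2 CPM in Susd2-/-, against 106.9 and 105.0 CPM in WT). Oasl1 (-1.44) and Lrrc8d (-0.40) had the reverse, Susd2-/- below WT at day 3 and above WT at day 0. Lrrc8d was close at day 3 (69.62 and 69.60 CPM in Susd2-/-, against 71.58 and 70.50 CPM in WT). Over all genes, 17.4% had both Susd2-/- libraries above both WT ones at day 3 and 16.3% below. The differences between the effects were not tested either.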

How the results depend on the processing

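The members' day 0 log2 fold changes were negative in every fit run. The count of members changed with day was 8 to 10. At day 3, 1 member passed with no filter, and 0 to 2 passed when 1 library was left out. Over all genes, the day 3 genotype contrast gave 138 calls with no filter, 66 with DESeq2, 1 with each day 0 group treated as 1 library, 3 in the day 3 libraries alone and 6 to 392 with 1 library left out (392 without Susd2-/- day 3 library 1, 309 without WT day 3 library 1). The day 0 contrast gave 725 with each day 0 group treated as 1 library and 2044 to 4410 with 1 library left out.

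Signs of the day 3 genotype values turned. Gbp7 (-0.0013) became 0.0071 with DESeq2 size factors, 0.045 with no filter, 0.012 with the replicate block, 0.0071 with DESeq2, 0.021 in lane 1 alone and 0.013 without TMM. In lane 1 alone Gbp6 was -0.058 and Gbp11 -0.78. With 1 library left out the values ran from -0.097 to 0.37 for Gbp3, -0.077 to 0.28 for Gbp4, -0.28 to 0.24 for Gbp5, -0.19 to 0.32 for Gbp6, -0.18 to 0.29 for Gbp7, -0.33 to 0.33 for Gbp9 and -0.90 to 0.34 for Gbp10. The day difference of Gbp3 ran from -0.23 to 0.00014 with 1 library left out and was -0.34 without TMM. The cause was not tested.

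Library numbers did not pair the samples (correlation of deviations -0.0104 at day 3 and 0.00859 at day 0). With the replicate block, 17 genes were called at day 3 and 3406 at day 0 between genotypes and 13287 between days, with 0 and 8 members in the tested contrasts. Scaling without TMM moved the median day difference by -0.19. Low counts limit Gbp11 at day 3.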
